A study of Mus musculus with 204 samples.

Results

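Scn2b, Scn3b and Scn4b are auxiliary beta subunit genes of the voltage-gated sodium channel, the channel that carries the rising phase of the action potential. They are 3 of the 49492 genes in the deposited table and were taken by name. A channel is built around a large alpha subunit that forms the pore. Beta subunits are small membrane proteins with an immunoglobulin-like domain outside the cell and a single membrane-spanning segment. They change the gating of the pore and its delivery to the surface, and they also act as cell adhesion molecules. The Scn2b and Scn4b products are held to the alpha subunit by a disulfide bond, the Scn3b product without one, and the Scn4b product is known from brain and sensory neurons for its part in resurgent sodium current. In the gut, sodium channels let enteric neurons fire the action potentials that drive motility.

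The transcripts were read in 204 single cells of the mouse distal colon. The animals, VGLUT2-tdTomato mice, carry a red fluorescent reporter of Slc17a6, the gene of the vesicular glutamate transporter VGLUT2, and the labels do not say whether red cells express the gene at present or did so in the past. The muscle layers with the myenteric plexus, the nerve network between them, were dissociated and kept in culture overnight, and red cells were picked by hand under a microscope. Plates 1, 2 and 3 held polyadenylated RNA of 66, 66 and 72 cells, with no treatment named. No animal or culture is named either, so a plate counts as 1 sample, cells are not replicates, and no test was made. The deposited column headers mark the cells of plates 2 and 3 with the same label, P2, and those of plate 1 with P1. The sequencer index also runs on from plate 2 to plate 3. What plates 2 and 3 share beyond that is not stated, so they may not be independent of each other. The exact 95% intervals (Clopper-Pearson) given here cover counting error only.

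A cell had between 452928 and 14310502 reads in genes, and the plate medians were 3445498, 4571341 and 4690978 for plates 1, 2 and 3. CPM is reads per 1000000 of a cell's total, and a transcript is called detected at 10 CPM, which is 4.53 reads in the shallowest cell and 143.1 in the deepest. The labels call every cell a neuron. By a list of 13 pan-neuronal genes, 54 of 66, 45 of 66 and 54 of 72 cells on plates 1, 2 and 3 were neuronal (at least 7 of the 13 detected), 75% of all cells. The other 51 cells (12, 21 and 18) fell short of 7, and each of them carried a marker list of another cell type, most often smooth muscle (34 cells). Such a list was also carried by 84 neuronal cells (30, 28 and 26 on plates 1, 2 and 3), 41 of them with smooth muscle. Carrying a list therefore does not by itself set the other cells apart from the neuronal cells. Only 7 of the 204 cells had 6 to 8 of the pan-neuronal genes and so lay near that limit.

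All 3 genes lie on the plus strand of mouse chromosome 9 (GRCm38, the mm10 build, GENCODE M21 annotation). Scn3b spans chr9:40269217-40291618. Scn2b spans chr9:45117782-45130070 and Scn4b chr9:45138395-45154152, so that 8324 bases separate these neighbours. Genes annotated on the opposite strand overlap Scn2b (Gm10684) and Scn3b (Gm47266), with 0 exon bases shared in either case, and Gm10684 reached 10 CPM in 1 cell. RefSeq promoters (GRCm38.p6, 250 bases before to 50 after the start) were given for 2 of the 3 genes. The window of Scn2b, the member of the neighbouring pair found in most neuronal cells, had 2 CG pairs and 38.3% G or C. That of Scn4b, which few cells held, had 26 CG pairs and 66.3%, against medians of 7 pairs and 52.7% over 32851 mouse promoters of the same length. The E-box letters CANNTG (a palindrome, so read the same on both strands) occurred 3 times in the Scn2b window and 0 times in that of Scn4b, and 72.3% of all promoters held at least 1. Of all promoters, 23.3% had as few CG pairs as that of Scn2b. In the Scn4b window only 21 bases lie upstream of both annotated starts (RefSeq and GENCODE). Most of that window thus lies inside the annotated gene, and the bases upstream of both starts were not compared. The Scn2b bases upstream of both annotated starts, chr9:45117626-45117781 on the plus strand, are shown because the whole windows differ in composition, with E-boxes in capitals.
Scn2b: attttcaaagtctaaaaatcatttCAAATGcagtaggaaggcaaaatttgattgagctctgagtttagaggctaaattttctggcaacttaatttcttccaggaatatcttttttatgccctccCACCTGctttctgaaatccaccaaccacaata

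Scn2b and Scn3b transcripts were found in most neuronal cells and almost nowhere else, while Scn4b was rare. Scn2b was detected in 98 neuronal cells (64.1% of them, interval 55.9 to 71.6%), against 1 of 51 other cells (1.96%, 0.0496 to 10.4%). Scn3b was detected in 66.7% of neuronal cells (58.6 to 74.1%), against 1 of the other cells. Scn4b reached 10 CPM in 6 neuronal cells (3.92%, 1.45 to 8.34%), against 1 other cell.

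By plate, Scn2b was detected in 41 of 54, 23 of 45 and 34 of 54 neuronal cells on plates 1, 2 and 3. Its level in neuronal cells ran from 0 through a median of 49.3 to 365 CPM on plate 1, from 0 through 15.8 to 551 CPM on plate 2, and from 0 through 24.9 to 521 CPM on plate 3. In the other cells its median was 0 on each plate, and its highest values were 0.140, 25.0 and 0.224 CPM. The ranges overlap at the bottom, since 31 neuronal cells had no Scn2b read, but 30 neuronal cells stood at 100 CPM or more, while the highest of the other cells had 25.0 CPM.

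Scn3b gave nearly the same picture in 45 of 54, 24 of 45 and 33 of 54 neuronal cells. Its medians were 57.1, 11.0 and 24.2 CPM and its highest values 265, 165 and 289 CPM on plates 1, 2 and 3, with 0 the lowest on each. The other cells had medians of 0.110, 0 and 0 CPM and highest values of 15.0, 0.877 and 0.896 CPM. Plate 1 had the highest median and plate 2 the lowest for both genes, and without plate 1 the share of neuronal cells with Scn3b was 57.6%.

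**Figure D1:**
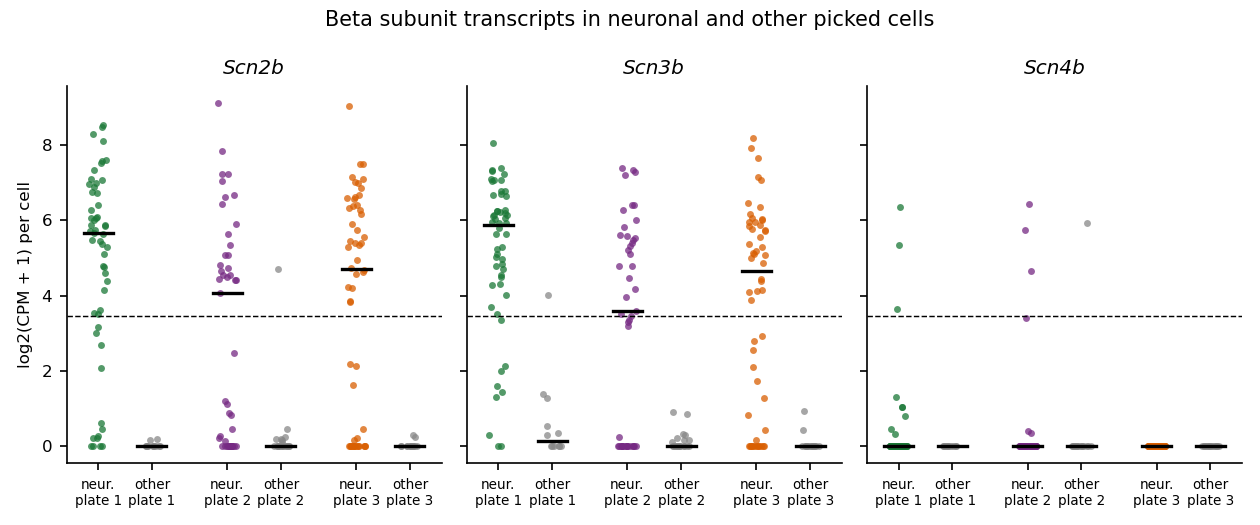
Level of each beta subunit transcript in single cells as log2(CPM + 1), for neuronal (neur., coloured) and other (grey) cells of each plate. Points are cells, bars are medians and the dashed line is the 10 CPM limit; Scn2b and Scn3b crossed it in 64.1 and 66.7% of neuronal cells and in 1 other cell each, while Scn4b did so in 6 neuronal cells and 1 other cell.

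On the log2 scale of mean CPM + 1, neuronal over other cells differed for Scn2b by 6.21, 4.29 and 5.72 on plates 1, 2 and 3, and for Scn3b by 4.62, 4.92 and 5.33. A gene is called higher or lower here when its ratio passes 1 on every plate compared. Both genes were called higher, and so were 15.7% of the 11144 genes that averaged at least 10 CPM over all cells, against 5.31% called lower. Scn2b and Scn3b passed that filter through the neuronal cells, since their means over the other cells were 0.524 and 0.448 CPM. Their calls are therefore no separate support. The median gene itself stood at 0.21, 0.24 and 0.46 on the 3 plates, so the members' values are to be read from there. Scn4b averaged under 10 CPM and was not compared. The plate 2 value of Scn2b turned on single cells. It was 5.38 without cell 57, the other cell with Scn2b (25.0 CPM), which carried the glia, smooth muscle, endothelial and interstitial lists. It was 0.48, and the call was lost, when a neuronal cell had to hold 75% of the list, and likewise at a limit of 50 CPM (0.34) or above 1% of the plate's highest count (0.57). The cell with the most Scn2b of all, plate 2 cell 55 at 551 CPM, held just 7 of the 13 pan-neuronal genes. It carried the smooth muscle and interstitial lists. For Scn3b the plate 1 value was 5.54 without cell 30, the other cell with Scn3b (15.0 CPM, smooth muscle and endothelial lists).

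Reads below the limit were spread more widely. Any Scn2b read was seen in 79.7% of neuronal cells, against 11 of 51 other cells, and any Scn3b read in 80.4% of neuronal cells, against 16 other cells, at median depths of 4159428 reads in neuronal and 3988757 in other cells. The wells of a plate went through amplification as 1 pool, and traces below the limit are not read as expression. Few neuronal cells lay just around the limit. Scn2b stood at 5 to under 10 CPM in 3 and at 10 to under 20 CPM in 10 of them, and Scn3b in 7 and 14.

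Because Scn2b and Scn3b differ in length, their levels were set side by side in RPKM, reads per kilobase of exon and 1000000 reads. In neuronal cells the median RPKM of Scn2b was 10.6, 3.39 and 5.35 on plates 1, 2 and 3, and that of Scn3b was 10.5, 2.02 and 4.43. Where each was detected, the median was 12.3 RPKM for Scn2b and 10.1 RPKM for Scn3b. The medians of Scn2b and Scn3b lay close on plates 1 and 3, less so on plate 2, where both were lowest.

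The pair was detected together in 78 neuronal cells (51.0%, interval 42.8 to 59.1%), Scn2b without Scn3b in 20, Scn3b without Scn2b in 24, and 31 had none of the 3 members. By plate the pair was seen in 70.4, 31.1 and 48.1% of neuronal cells. The product of the single shares was 63.3, 27.3 and 38.5%, lower on each plate. In the 78 cells Scn2b had the higher RPKM in 48 and Scn3b in 30, with a median log2 ratio of Scn2b over Scn3b of 0.32. Across neuronal cells the ranks of the genes followed each other weakly, with Spearman's rho of 0.36, 0.29 and 0.38 on plates 1, 2 and 3. Cells of a plate share a pool and differ in depth, and rho with the read total was -0.04, 0.12 and 0.31 for Scn2b and -0.12, 0.38 and 0.37 for Scn3b.

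**Figure D2:**
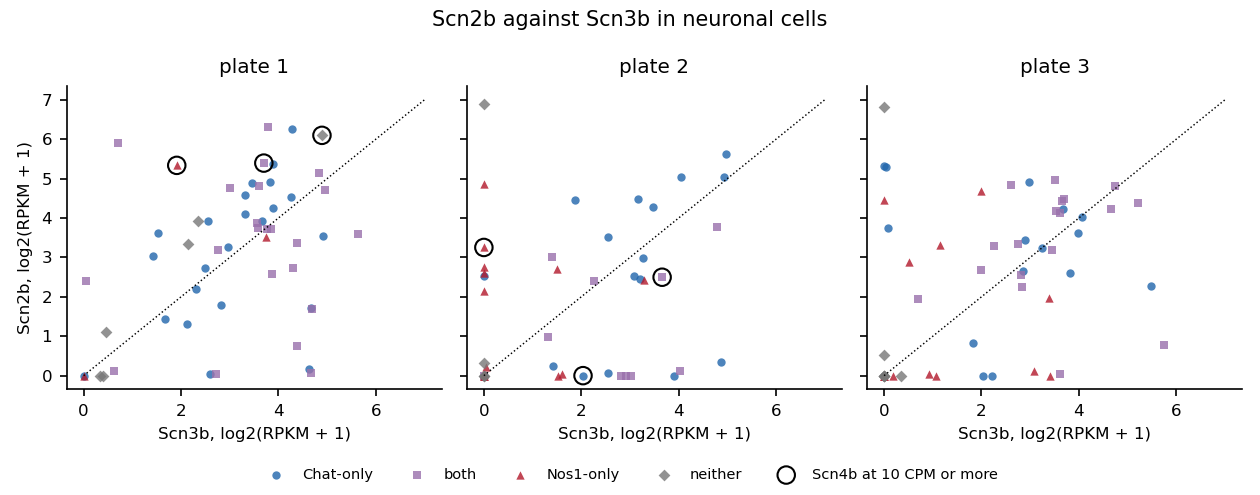
Scn2b (vertical) against Scn3b (horizontal) in neuronal cells of each plate, both as log2(RPKM + 1), with symbols for Chat and Nos1 detection and rings around cells with Scn4b at 10 CPM or more. The dotted line marks equal levels; 78 cells held both transcripts, 20 held Scn2b alone of the pair and 24 Scn3b alone, along the axes.

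Cells far off the line of equal levels were found in both directions. Plate 2 cell 55 and plate 3 cell 28 had the highest Scn2b of all cells, 551 and 521 CPM from 309 and 545 reads, and no Scn3b read, with totals of 561059 and 1045687 reads. Neither held Chat, Nos1 or Slc17a6 at 10 CPM. In plate 1 cell 33 Scn2b was at 273 CPM and Scn3b at 3.39 CPM, and this cell held Chat (209 CPM), Nos1 (158 CPM) and Slc17a6 (240 CPM). In the opposite direction, plate 3 cell 9 had the highest Scn3b, 289 CPM, and Scn2b at 3.37 CPM.

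Enteric neurons are commonly sorted by transmitter. Chat encodes the enzyme that makes acetylcholine and marks excitatory motor neurons and many interneurons, and Nos1 encodes neuronal nitric oxide synthase, a marker of inhibitory motor neurons. Chat without Nos1 was detected in 57 cells (called Chat-only here, 23, 18 and 16 by plate), Nos1 without Chat in 31 (Nos1-only, 3, 15 and 13) and both in 50 (22, 10 and 18). All but 1 Chat-only and 1 Nos1-only cell were neuronal. Nos1 stood between 5 and under 20 CPM in 21 cells and Chat in 7, so the Nos1 limit is the less sharp. With 3 Nos1-only cells, plate 1 gave no ratio.

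Scn3b ran with Chat. It was detected in 47 of 57 Chat-only cells (82.5%, interval 70.1 to 91.3%) and 43 of 50 cells with both transcripts (86%, 73.3 to 94.2%), against 9 of the 31 with Nos1 alone (29.0%, 14.2 to 48.0%). On plate 2 Chat-only cells ran from 0 through a median of 42.2 to 165 CPM and Nos1-only cells from 0 through 0 to 47.7 CPM. On plate 3 Chat-only cells ran from 0 through 34.5 to 239 CPM and Nos1-only cells from 0 through 4.83 to 52.4 CPM. Single cells overlap between the classes, but the transcript was held by 14 of 18 and 12 of 16 cells with Chat alone, against 3 of 15 and 4 of 13 with Nos1 alone. On plate 1, 21 of 23 Chat-only cells held it, against 2 of 3 Nos1-only cells.

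The log2 ratio of Chat-only over Nos1-only cells for Scn3b was 3.12 on plate 2 and 1.67 on plate 3. Scn2b was also higher in Chat-only cells, by 1.44 and 1.29. Both genes were called higher, as were 5.11% of all 11144 genes, against 1.72% called lower, and the median gene stood at 0.12 and 0.07. Leaving out 1 cell at a time, Scn3b ran from 2.94 to 4.07 on plate 2, where the 4.07 was without Nos1-only cell 65, and from 1.22 to 2.02 on plate 3. Scn2b ran from 1.14 to 2.18 on plate 2, the highest without Nos1-only cell 58, and from 1.07 to 1.85 on plate 3. When classes were set by a 4 times excess of Chat or Nos1 instead, plate 1 entered at 0.68 for Scn3b and 0.53 for Scn2b, both under the limit of 1, which ended both calls.

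Scn2b separated the classes less by detection. It was found in 41 of 57 Chat-only cells (71.9%, 58.5 to 83.03%), 38 of 50 cells with both transcripts (76%, 61.8 to 86.9%) and 14 of 31 Nos1-only cells (45.2%, 27.3 to 64.0%). On plate 2 Chat-only cells ran from 0 through a median of 22.2 to 227 CPM and Nos1-only cells from 0 through 0.764 to 129.97 CPM. That Nos1-only median is 8.29 CPM over the 14 neuronal cells, without the 1 cell that was not neuronal. On plate 3 Chat-only cells ran from 0 through 42.7 to 180.6 CPM and Nos1-only cells from 0 through 0.127 to 114.2 CPM. The ranges overlapped on both plates. On plate 1 the medians were 49.9 CPM for Chat-only cells, against 48.6 CPM for the 3 with Nos1 alone. Of Nos1-only cells, 9 held Scn2b without Scn3b, 4 Scn3b without Scn2b and 5 the pair, whereas 36 of 57 Chat-only cells held the pair. The share with the pair was 16.1% in Nos1-only, 63.2% in Chat-only and 68.0% in cells with both transcripts. The products of the single shares there were 13.1, 59.3 and 65.4%. In neuronal cells with neither Chat nor Nos1 the pair was seen in 17.6%, against a product of 5.19%.

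**Figure D3:**
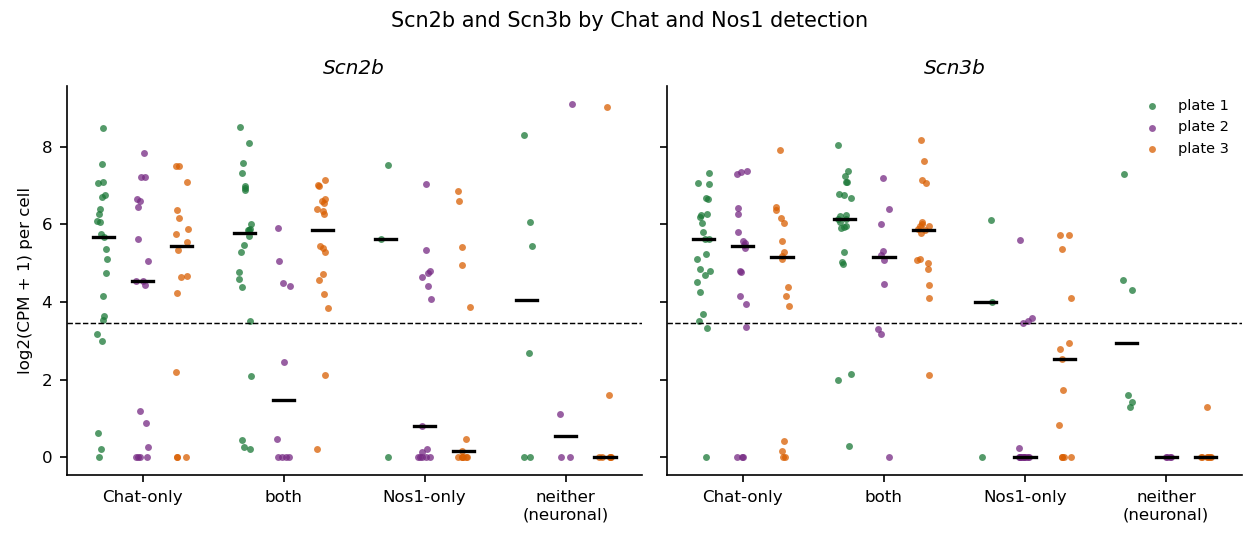
Scn2b and Scn3b in single cells as log2(CPM + 1) by Chat and Nos1 detection, with plates in colour, bars at medians and the dashed line at 10 CPM. Chat-only medians of Scn3b on plates 2 and 3 were 42.2 and 34.5 CPM, above the Nos1-only medians of 0 and 4.83 CPM, and the highest Scn2b points lie in neuronal cells with neither transcript.

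Ordered by the plate medians of Scn3b, cells with both transcripts (69.4, 34.6 and 56.9 CPM on plates 1, 2 and 3) and Chat-only cells (48.7, 42.2 and 34.5 CPM) overlapped. Both lay above Nos1-only cells (15.1, 0 and 4.83 CPM) on every plate. Plate 1 adds little here, because it had 3 Nos1-only cells. Its 15.1 CPM is the value of cell 40, which carried the list of extrinsic sensory neurons described below. Nos1-only cells overlapped with the 17 neuronal cells that had neither transcript (10.4, 0 and 0 CPM). For Scn2b the medians of cells with both transcripts were 54.0, 2.46 and 59.5 CPM, and all classes overlapped over the 3 plates.

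The 17 neuronal cells with neither Chat nor Nos1 were uneven. Scn3b was detected in 3 of 6 on plate 1, in 0 of 4 on plate 2 and in 0 of 7 on plate 3, where the exact intervals for 0 cells reach 60.2 and 41.0%. Scn2b was detected in 5 of the 17, of which 3 were plate 2 cell 55, plate 3 cell 28 and plate 1 cell 43 at 551, 521 and 314 CPM. These 17 cells were shallow, with a median of 1456722 reads, and 10 of them carried the smooth muscle list.

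Other cells' RNA and depth did not run evenly over the classes. Smooth muscle genes were carried as a list by 6 of 18 Chat-only cells, against 6 of 15 Nos1-only cells, on plate 2. On plate 3 it was carried by 5 of 16 with Chat alone, against 1 of 13 with Nos1 alone. The summed level of the list ran from 6.18 to 47961 CPM in Chat-only and from 4.88 to 16268 CPM in Nos1-only cells on plate 2, and from 9.48 to 13875 CPM in Chat-only and from 7.26 to 112.02 CPM in Nos1-only cells on plate 3. Median depth was 4211218 reads in Chat-only and 5233445 in Nos1-only cells on plate 2, and 4986706 in Chat-only and 6885181 in Nos1-only cells on plate 3. The part of either in the ratios was not tested. In neuronal cells that carried no list of another cell type, the Scn3b ratio was 2.73 and 1.84 on plates 2 and 3 and the Scn2b ratio 2.99 and 1.16.

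The cells were picked for a reporter of Slc17a6, and its own transcript was detected in 89 neuronal cells and not in 64. Scn3b was more frequent where it was found: 72 of 89 cells with Slc17a6 (80.9%, interval 71.2 to 88.5%) held Scn3b, against 30 of 64 without it (46.9%, 34.3 to 59.8%). Scn2b was detected in 66 of 89 (74.2%, 63.8 to 82.9%), against 32 of 64 (50.0%, 37.2 to 62.8%). Median Scn3b was 60.4, 36.0 and 53.7 CPM with Slc17a6, against 20.7, 0.191 and 4.83 CPM without it, on plates 1, 2 and 3. Median Scn2b was 52.0, 13.4 and 42.6 CPM with Slc17a6, against 9.69, 15.8 and 2.06 CPM without it.

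The log2 ratio of means with over without Slc17a6 was 0.54, 1.53 and 1.46 for Scn3b and 0.28, -0.16 and 0.39 for Scn2b. Neither passed 1 on all plates. Of all genes, 1.17% did so upward and 0.763% downward, and the median gene stood at 0.11, 0.08 and 0.16. With a limit of 5 CPM for all genes, Scn3b passed on each plate (2.50, 1.53 and 1.90). The ratio of Scn2b moved with single cells that had much of it and Slc17a6 under 10 CPM. Leaving out 1 of them moved it to 1.09 on plate 1 (without cell 43, which had Slc17a6 at 8.55 CPM), 0.72 on plate 2 (without cell 55) and 1.04 on plate 3 (without cell 28). Cells with Slc17a6 were mostly cells with Chat, 83 of 89, against 23 of 64 without Slc17a6. Among neuronal cells with Chat, Scn3b was detected in 70 of 83 cells with Slc17a6 (84.3%) and in 20 of 23 without it (86.96%). The ratio of Scn3b there was 0.77 on plate 2 and 0.28 on plate 3, and plate 1 had too few cells without Slc17a6 for one. The list of smooth muscle genes was carried by 21 of 89 neuronal cells with Slc17a6 and by 20 of 64 without it, at median depths of 4033634 and 4656093 reads, and the part of either was not tested.

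**Figure D4:**
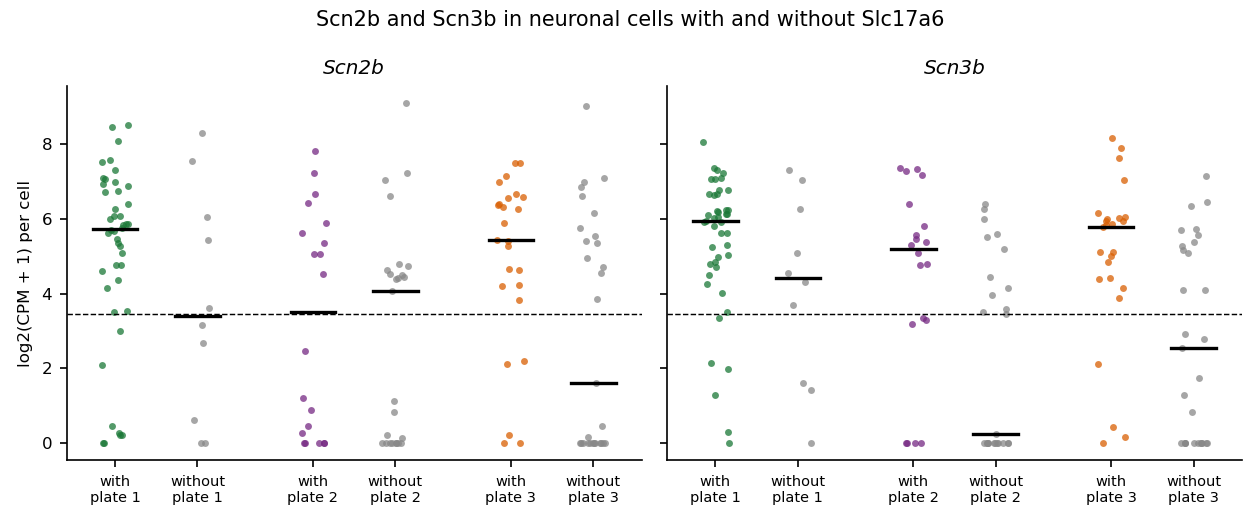
Scn2b and Scn3b in single neuronal cells as log2(CPM + 1), with (coloured) and without (grey) Slc17a6 at 10 CPM, by plate, with bars at medians and the dashed line at 10 CPM. Scn3b medians were 60.4, 36.0 and 53.7 CPM with Slc17a6, against 20.7, 0.191 and 4.83 CPM without it, and the topmost Scn2b points on plates 2 and 3 lie in cells without it.

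Scn4b was confined to few cells. Reads of it were seen in 16 of the 204 cells, and 7 reached 10 CPM, with 3 on plate 1 and 4 on plate 2. None of the 72 cells of plate 3 had a read of it, which gives an exact interval of 0 to 4.99% for its share there (3 of the 72 cells, the limit set for a count of 0, would be 4.17%). Of the 7 cells, 5 also held Scn2b and 5 held Scn3b.

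The highest neuronal values of plate 1 came from cells that differed from the rest. Plate 1 cells 43 and 40, with Scn4b at 80.4 and 39.3 CPM from 235 and 336 reads, were the only 2 neuronal cells to carry the list of extrinsic sensory neurons, the afferents with cell bodies outside the gut wall. Scn4b was detected in both, against 4 of the other 151 neuronal cells. They also held Scn2b at 314 and 183 CPM and Scn3b at 156.9 and 15.1 CPM. Calca, the precursor of the peptide CGRP, stood at 1763 and 30344 CPM, and Scn10a, an alpha subunit gene of pain-sensing neurons, at 615 and 401.5 CPM. Where these cells came from was not tested.

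The other neuronal cells with Scn4b were mixed. Plate 1 cell 41 (11.4 CPM) held both Chat and Nos1, with Calca at 6.15 CPM and Calcb, a second CGRP gene, at 765 CPM. Plate 2 cell 5 had the highest Scn4b, 84.7 CPM from 50 reads, with Chat at 67.8 CPM, no Scn2b read and the smooth muscle and mesothelial lists. Plate 2 cell 23 (52.4 CPM) held Chat, Nos1 and Scn11a, another sensory alpha subunit gene, at 76.2 CPM. Plate 2 cell 33 (24.3 CPM from 11 reads), the shallowest of all cells, held Nos1 (192.1 CPM) and Slc17a6 (101.6 CPM). Genes of the extrinsic sensory list were found in both without the list being carried. Cell 23 held Avil (29.9 CPM) and Pou4f1 (53.2 CPM), and cell 33 Avil (183 CPM) and Prdm12 (19.9 CPM). Plate 1 cell 41 held Avil at 17.8 CPM, and plate 2 cell 5 had no read of Avil, Pou4f1 or Prdm12. The remaining cell was not neuronal. Plate 2 cell 29 had Scn4b at 59.4 CPM from 286 reads with no read of Scn2b or Scn3b, and carried the glia list, with Sox10, a glial transcription factor gene, at 1521 CPM.

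Beta subunits act on alpha subunits, of which 9 genes are described here. Per length, Scn9a was the highest of them in neuronal cells, with median RPKM of 14.2, 5.41 and 9.33 on plates 1, 2 and 3, above Scn2b and Scn3b on each plate. It was detected in 84.3% of neuronal and 1.96% of other cells. Scn3a (66.7%), Scn8a (61.4%) and Scn2a (60.8%) were detected about as often as Scn2b or Scn3b. All 3 ran at lower levels, with medians over neuronal cells of 1.93, 1.19 and 1.36 RPKM. The median over neuronal cells was 5.44 RPKM for Scn2b and 5.71 RPKM for Scn3b. Of the 9 genes, 4 averaged at least 10 CPM and all 4 were called higher in neuronal over other cells, as were 15.7% of all genes. Their median log2 ratio was 4.45, against 0.30 over all genes. That filter is a mean over all cells, 75% of them neuronal, and these 4 genes passed it through the neuronal cells. Their count is therefore no separate support, and the rest of the 9 genes were not compared.

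**Figure D5:**
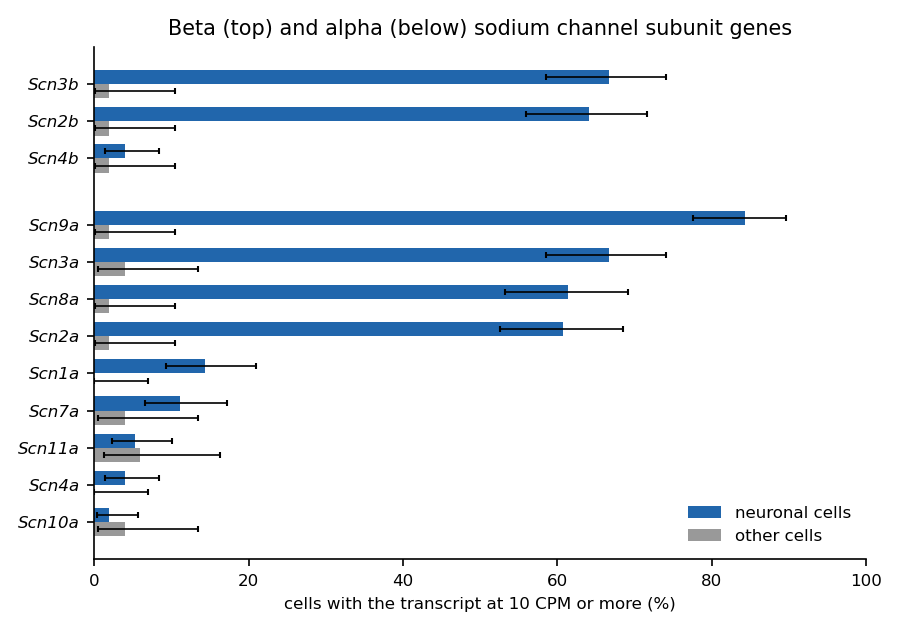
Share of neuronal (blue) and other (grey) cells with each beta and alpha subunit transcript at 10 CPM or more, with exact 95% intervals for counting error. Scn2b and Scn3b lie at 64.1 and 66.7% of neuronal cells, close to Scn3a, Scn8a and Scn2a, and Scn4b at 3.92%.

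The alpha genes did not share one pattern between the transmitter classes. In Chat-only over Nos1-only cells, Scn9a was called higher (1.35 and 2.02 on plates 2 and 3) like Scn2b and Scn3b. Scn2a was called lower (-1.37 and -1.51), a call that was lost at a limit of 50 CPM (-1.55 and -0.9995) and with classes by a 4 times excess, where plate 1 entered at 0.42. Scn3a (0.53 and 1.97) and Scn8a (-0.33 and 0.19) did not pass on both plates. The median of the 4 genes was 0.59, against 0.10 over all genes.

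Over the plates together, Scn2b and Scn3b were found least often, and depth was lowest, in cells with few alpha genes. With 0 or 1 of the 9 alpha genes, Scn2b was found in 5 of 21 and Scn3b in 5 of 21 neuronal cells, at a median depth of 1456722 reads. With 4 or more, Scn2b was found in 55 of 71 (77.5%) and Scn3b in 56 of 71 (78.9%), at 4955247 reads. From 2 alpha genes upward the order was not the same on each plate. On plate 2 both members were found in 75% of 8 cells with 2 alpha genes, against 58.8% of 17 with 4 or more, and on plate 3 median depth was lower with 4 or more than with 2 or 3. By single alpha gene, Scn3b was found in 90.0% of plate 1 cells with Scn9a, against 0 of 4 cells without it. On plate 3 the shares were 71.1% with Scn9a and 11.1% of 9 cells without it, and on plate 2 55.9% with it and 45.5% of 11 cells without it.

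Of 13 genes of the axon initial segment and its channel partners, 9 averaged at least 10 CPM over all cells, a filter that favours genes high in neuronal cells. Of these, 6 were called higher in neuronal over other cells, where 15.7% of all genes were, and the median of the 9 was 3.31, against 0.30 over all genes. They included Fgf13, which encodes an intracellular factor that binds the channel's tail (4.76, 6.84 and 4.32), and Nfasc, the gene of neurofascin, an adhesion partner of beta subunits (5.28, 5.57 and 5.74). Tnr, the gene of tenascin-R, a matrix ligand of the Scn2b product, had ratios of 4.71, 5.07 and 6.04. L1cam, Cntn1 and, chosen after its values were seen, Sptbn4 were the others. Ank3, the gene of the scaffold ankyrin-G, was detected in 87.6% of neuronal and 43.1% of other cells and was not called (2.49, 0.36 and 0.81). In Chat-only over Nos1-only cells Cntn1, the gene of contactin, an adhesion partner of beta subunits, was called lower (-1.70 and -2.36), opposite to the members. Tnc, chosen after its values were seen, was called higher (1.09 and 3.24), and that call was lost without the highest cell of each class and plate (0.34 and 1.71).

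Beta subunits are cut by secretases. All 7 genes of these proteases described here averaged at least 10 CPM, and 5 of them were found in 73.9 to 97.4% of neuronal and 58.8 to 92.2% of other cells. Bace1, the gene of the beta-secretase, was called higher in neuronal over other cells (2.04, 1.49 and 1.24), as was Bace2 (2.56, 1.93 and 1.47), chosen after its values were seen. The alpha-secretase gene Adam10 (-0.93, -1.36 and -0.53) and the gamma-secretase genes Ncstn, Aph1a and Psenen were not. The median over the 7 genes was -0.24, against 0.30 over all genes.

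Among 8873 genes detected in at least 25% of neuronal cells on each plate, likeness to a member was ranked by the lowest Spearman's rho of the 3 plates. For Scn3b the genes most like it were Syt1, a synaptic vesicle calcium sensor gene (0.51, 0.47 and 0.52 on plates 1, 2 and 3), Chat (0.46, 0.70 and 0.50), Adra2a, the alpha-2A adrenergic receptor gene (0.48, 0.56 and 0.46), Tlx2, a homeobox gene of enteric neurons (0.50, 0.45 and 0.52), and Nyap1 (0.50, 0.53 and 0.45). The most unlike were S100a16, Nfix and Ncl, with rho between -0.26 and -0.52. Scn2b ranked 270 on this scale for Scn3b. Nos1 ranked 8516 through its lowest rho, that of plate 2, with values of 0.11, -0.28 and 0.06 on plates 1, 2 and 3.

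For Scn2b the genes most like it were Cd99l2, an adhesion molecule gene (0.47, 0.50 and 0.45), Kcnk2, a two-pore-domain potassium channel gene (0.42, 0.47 and 0.49), Prima1, whose product anchors acetylcholinesterase in the membrane (0.41, 0.49 and 0.44), the neuronal enolase gene Eno2 (0.48, 0.38 and 0.73) and Napb (0.42, 0.37 and 0.45). The most unlike were Aprt, Kmt2d and Odc1, with rho between -0.23 and -0.45. Chat ranked 180 for Scn2b (0.36, 0.22 and 0.30) and Scn3b ranked 33. These values describe cells that share a plate's pool and vary in depth, and the median gene had a lowest rho of -0.06 with Scn2b and 0.02 with Scn3b.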

How the data were processed

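The deposited values, 1 column per cell, are log2(RPKM + 1), where RPKM is reads per kilobase of exon and 1000000 reads; base and offset were read from the values. The mm10 build is named in the submitters' processing notes. For the aligner, the counting tool and the strand, the setting is not given in the sources used here, and the kit adds no molecular identifiers. The design allowed for raw counts. After undoing the log2 scale of the deposited table, RPKM times gene length and depth gave whole reads, within 0.0001, for 100% of 2375655 values above 0. Gene length was the exon length of GENCODE M21 for 31311 genes and otherwise the smallest length that made values whole (6324 genes). CPM was computed from these reads. Ratios are log2 of mean CPM + 1, per plate with at least 5 cells of both classes, and understate changes of low genes; they were tested on simulated data. A list is carried where 50% of its measured genes reach 10 CPM. Doublets were not called in hand-picked cells.

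Members, lists and rules were chosen with earlier results of these data known. Named are the members, Chat, Nos1 and Slc17a6, up to 6 genes per list by share of neuronal cells, and the 5 genes most like and 3 most unlike a member; other names were chosen after their values were seen. Some genes of the family and of the lists are not reported here. Alternatives were another limit, a 1% filter on counts, thinning to 400000 reads, another pseudocount, no filter, other class rules and cells or plates left out. Python 3.11.15, pandas 2.3.3, numpy 2.4.6 and scipy 1.17.1 were used.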

Additional observations from a re-analysis of the deposited data

Results flagged for a closer look

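Scn2b took opposite directions between plates in neuronal cells with over without Slc17a6. For plates 1, 2 and 3 its log2 ratio of means was 0.28, -0.16 and 0.39, and the difference between plates was not tested. On plate 2 the ratio was 0.72 without cell 55.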

How the results depend on the processing

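No paired analysis was possible because the results come from no test, and each ratio already compares cells of the same plate. Of the results under other settings, none changed the direction of a called value in its mean over plates, and the cause of the changes was not tested. Single plates could differ: with classes by a ratio of 4, Scn2a, called lower, ran the opposite way on plate 1. In neuronal cells, Scn2b was detected in 35.3% at 50 CPM and 79.7% with any read, Scn3b in 35.9%, 80.4% and, without plate 1, 57.6%, Scn4b in 9.80% with any read, and the pair in 22.2% at 50 CPM. Neuronal over other cells, the plate mean for Scn2b (5.41) became 4.14 at 50 CPM, 4.21 with the 1% filter, 4.14 at 75% of the list and 7.68 with a pseudocount of 0.1 CPM, which gave 6.80 for Scn3b (4.96). Without the filter on the mean, 2788 genes were called higher instead of 1752. Chat-only over Nos1-only, the mean for Scn2b (1.37) was 1.54 at 5 CPM, 1.64 at 50 CPM, 1.69 with the 1% filter, 1.54 after thinning, 2.08 in neuronal cells with no other list, 0.96 with classes by a ratio of 4 and 1.75 without the highest cells. Genes called higher numbered 570 and genes called lower 1.72% of those compared. They were 1103 and 670 without the filter and 292 and 45 with the ratio of 4, and 334 were lower in cells with no other list. The ratio of 4 covers 3 plates and the reported comparison 2, so its mean and counts are on unlike sets of plates. With over without Slc17a6, Scn2b (0.17) was 0.88 at 5 CPM, and Scn3b (1.18) was 1.98 at 5 CPM and 0.39 at 50 CPM. In cells with Chat, Scn3b was 0.52, and 229 genes were higher and 138 lower, against 130 and 85. The values in cells with Chat cover 2 plates and the reported ones 3, so a call there had to pass on fewer plates. Leaving out single cells, and the 2 cells with the extrinsic sensory list (Scn4b 2.65%, against 3.92%), was chosen after seeing the data. A cell at 10 CPM can rest on 4.53 reads.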

Other observations

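Over the plates together, detection of Scn2b and Scn3b also differed with how many of the 13 pan-neuronal genes a neuronal cell held. Of 53 cells with all 13, Scn2b was found in 42 (79.2%, interval 65.9 to 89.2%) and Scn3b in 43 (81.1%, 68.0 to 90.6%). Of 84 cells with 11 or 12, they were found in 53 (63.1%) and 59 (70.2%). Of 16 cells with 7 to 10, Scn2b was found in 3 and Scn3b in 0, for which the exact interval reaches 20.6%. The list does not hold the members, but depth and the share of cells with smooth muscle genes differed along it. Median depth was 5162140 reads with all 13, 3741721 with 11 or 12 and 927508 with 7 to 10. Smooth muscle genes reached list level in 10 of 53, 21 of 84 and 10 of 16 cells. On plate 1 cells with all 13 instead had lower depth than those with 11 or 12 (3457921 and 3672337 reads). Smooth muscle genes were also more frequent there in cells with all 13 (5 of 21, against 4 of 30). The part of depth and of RNA from other cells was not tested.

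In neuronal cells that carried the smooth muscle list, Scn2b was found in 19 of 41 (46.3%), against 79 without it (70.5%), and Scn3b in 20 (48.8%), against 82 (73.2%). On plate 1 the shares of Scn3b ran the opposite way, 90.0% of 10 cells with the list, against 81.8% of 44 without it. Of the 29 neuronal cells that carried the striated muscle list, 23 held Scn2b and 19 Scn3b.

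With over without Slc17a6, Tnr (4.24, 1.98 and 1.55 on plates 1, 2 and 3) and Bace2 (2.15, 2.87 and 1.93) were called higher among the channel partners and proteases, as were 1.17% of all genes, and none of the 4 alpha genes compared was called. The call of Bace2 was lost at 50 CPM and after thinning, where plate 1 stood at 0.80 and 0.89.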
